A study of Sus scrofa with 12 samples.

Results

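The 34 genes described here encode the heat shock chaperones of the cytosol and the mitochondrion, the co-chaperones that work with them and the factors that switch them on. They comprised 7 genes of the HSP70 class, 5 of HSP90 and its partners, 9 J-proteins, 7 small heat shock proteins, 2 BAG proteins, 2 chaperonin subunits and 2 heat shock factors. They were chosen by name with a rule that uses no measured value, although earlier results of these data were known when the list was drawn up. All 34 were found in the RefSeq annotation of Sscrofa11.1 and all 34 passed the filter on low values, out of 12570 genes tested and 15217 genes listed above 0 in at least 1 library.

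Longissimus dorsi, the long muscle of the loin, had been sampled from 12 castrated male Iberian pigs of 1 closed purebred population, fattened outdoors on acorns and grass, slaughtered at about the same age and weight, and chosen so that no siblings were included. The H group held the 6 pigs with the highest and the L group the 6 pigs with the lowest estimated breeding value (EBV) for intramuscular fat (IMF), and no treatment was compared. By the labels, IMF ranged from 10.62 to 13.8% and EBV from 2.78 to 3.48 in H, against an IMF of 1.7 to 2.28% and an EBV of -1.46 to -1.31 in L. The methods of the study give a mean IMF for L that lies above these label values, and this was not resolved. The groups were extremes of 1 population rather than lines, and the labels used here do not tie a pig to a fattening or slaughter batch or to a sequencing lane, so that neither could be tested.

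Each pig gave 1 RNA-seq library, and its file lists the transcripts that the authors assembled with their FPKM (fragments per kilobase of transcript, scaled to the mapped fragments of the library) and their mean read depth. The transcripts held between 9.88 and 17.6 gigabases of read coverage per library, and 41.8 to 56.5% of it lay in transcripts that could be assigned to an annotated gene. Of 13 annotated muscle marker genes, ACTA1, the main actin of skeletal muscle, was listed at 0 in all 12 libraries. CKM, the muscle creatine kinase, and MYH7, the slow myosin heavy chain, were at 0 in 2 each. TNNI1, slow troponin I, was at 0 in 1, library L3. A value of 0 in these files is therefore given as listed, not as absence of the RNA. MYLPF, a fast fibre light chain, lay at 6632 FPKM or more in every library. Library L3, from the third pig of the L group, had the fewest transcripts, 30535, and stood apart for the chaperone genes as described next to each result. H4 had the most, 44609, of which 21602 had a single exon.

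Heat shock proteins are molecular chaperones: they bind unfolded or partly folded proteins, keep them from clumping and help them fold or be degraded. J-proteins hand clients to HSP70, HSP110 proteins and BAG proteins drive the exchange of nucleotide that releases them, HSP90 finishes the folding of many kinases and receptors, and the small heat shock proteins hold unfolding proteins without using ATP. In the mitochondrion, mortalin pulls in proteins and the HSP60 and HSP10 chaperonin encloses and folds them. Heat, exercise, oxidative stress and low energy free the transcription factor HSF1, which binds heat shock elements in the promoters of these genes. Striated muscle holds large amounts of small heat shock proteins, which protect the filaments of the sarcomere, and BAG3 with HSPB8 clears damaged filament proteins there.

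A heat shock element is a run of 5-base units whose core is GAA, in alternating direction, and it was searched for in the 250 bases before the annotated start of each gene as GAANNTTCNNGAA or TTCNNGAANNTTC, in which N is any base. The pair of patterns is its own reverse complement, so that both strands were covered. At least 1 element of 3 units was present before 5 of the 34 genes (14.7%), namely HSPA8, HSP90AB1, DNAJB6, HSPD1 and CHORDC1. Among 19800 annotated protein-coding genes with a window of the same length it was present in 67 (0.338%). The 2-unit forms GAANNTTC and TTCNNGAA, which also lie within every 3-unit element, were found before 10 of the 34 genes (29.4%) and before 10.5% of all protein-coding genes. A match is a description of the letters and not a measured binding site. Some annotated starts lie at the start codon, among them those of HSPA1A and of CHORDC1, whose window is not printed. The window of CRYAB lies inside the gene of HSPB2. A window without an element is therefore not a promoter without one.

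The 4 promoters are shown because they carry a feature that the choice of the genes did not use. They are given in build Sscrofa11.1 and read 5′ to 3′ on the strand of the gene, with elements of 3 units in capitals.
HSPA8 (chr9:49986761-49987010, minus strand): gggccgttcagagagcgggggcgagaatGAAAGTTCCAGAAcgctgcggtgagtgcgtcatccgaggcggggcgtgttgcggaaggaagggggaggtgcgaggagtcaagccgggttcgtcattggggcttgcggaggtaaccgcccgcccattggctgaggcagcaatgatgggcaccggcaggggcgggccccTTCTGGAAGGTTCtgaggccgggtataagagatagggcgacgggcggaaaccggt
HSP90AB1 (chr7:39237049-39237298, plus strand): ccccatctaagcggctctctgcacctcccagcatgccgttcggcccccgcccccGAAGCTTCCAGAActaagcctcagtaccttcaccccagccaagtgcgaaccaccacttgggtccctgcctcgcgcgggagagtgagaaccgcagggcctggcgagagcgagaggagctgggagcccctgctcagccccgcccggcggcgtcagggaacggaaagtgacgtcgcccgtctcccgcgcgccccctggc
DNAJB6 (chr18:1499905-1500154, minus strand): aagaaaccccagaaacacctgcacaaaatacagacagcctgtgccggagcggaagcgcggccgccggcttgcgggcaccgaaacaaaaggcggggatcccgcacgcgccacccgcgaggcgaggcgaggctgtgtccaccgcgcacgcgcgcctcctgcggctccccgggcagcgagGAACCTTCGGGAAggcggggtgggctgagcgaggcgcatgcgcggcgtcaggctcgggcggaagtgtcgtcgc
HSPD1 (chr15:101373499-101373748, minus strand): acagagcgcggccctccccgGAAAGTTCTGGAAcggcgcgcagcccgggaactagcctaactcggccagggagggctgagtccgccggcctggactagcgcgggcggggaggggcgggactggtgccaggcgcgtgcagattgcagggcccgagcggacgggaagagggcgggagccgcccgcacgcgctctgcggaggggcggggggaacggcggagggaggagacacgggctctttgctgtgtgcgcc
HSPA8 carried 2 elements, the nearer of which ended 42 bases before the start, and the other 3 genes carried 1 each. HSPD1 and HSPE1, which encode the chaperonin HSP60 and its lid HSP10, lie head to head, with the HSPE1 start at chr15:101374019 on the opposite strand, so that the HSPD1 window lies between both genes.

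Most of the chaperones had a slightly lower mean level in H than in L, no difference passed the threshold, and most of the shift in the median was lost without 1 pig. With all 12 pigs, 28 of the 34 genes (82.4%) had a log2 fold change (H over L) below 0, against 49.5% of all genes tested. Their median log2 fold change was -0.25, and that of all genes tested was 0.00. No gene of the 34 passed limma at an adjusted p under 0.1, a threshold that 1 of 12570 genes (0.00796%) passed. At an unadjusted p under 0.05, 2 of the 34 were lower in H, DNAJB1 and HSF1, where 3.37% of all genes were, and 0 were higher, where 3.98% of all genes were. By FPKM, no gene of the 34 had every H pig on 1 side of every L pig. Of all genes, 0.247% did with H lower and 0.31% with H higher. Without L3, 1 of the 34, DNAJB1, was lower in H at an unadjusted p under 0.05, where 2.99% of all genes were, 0 were higher, where 3.53% were, and 0 passed the adjusted threshold, which 0.0239% did. Of the 34 genes 22 were then below 0, against 49.8% of all genes, and the median was -0.04. Without L3 and H4, the pig with the lowest chaperone levels in H, it was 0.01. In bulk muscle, fewer cells of a type and less RNA per cell cannot be told apart.

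**Figure D1:**
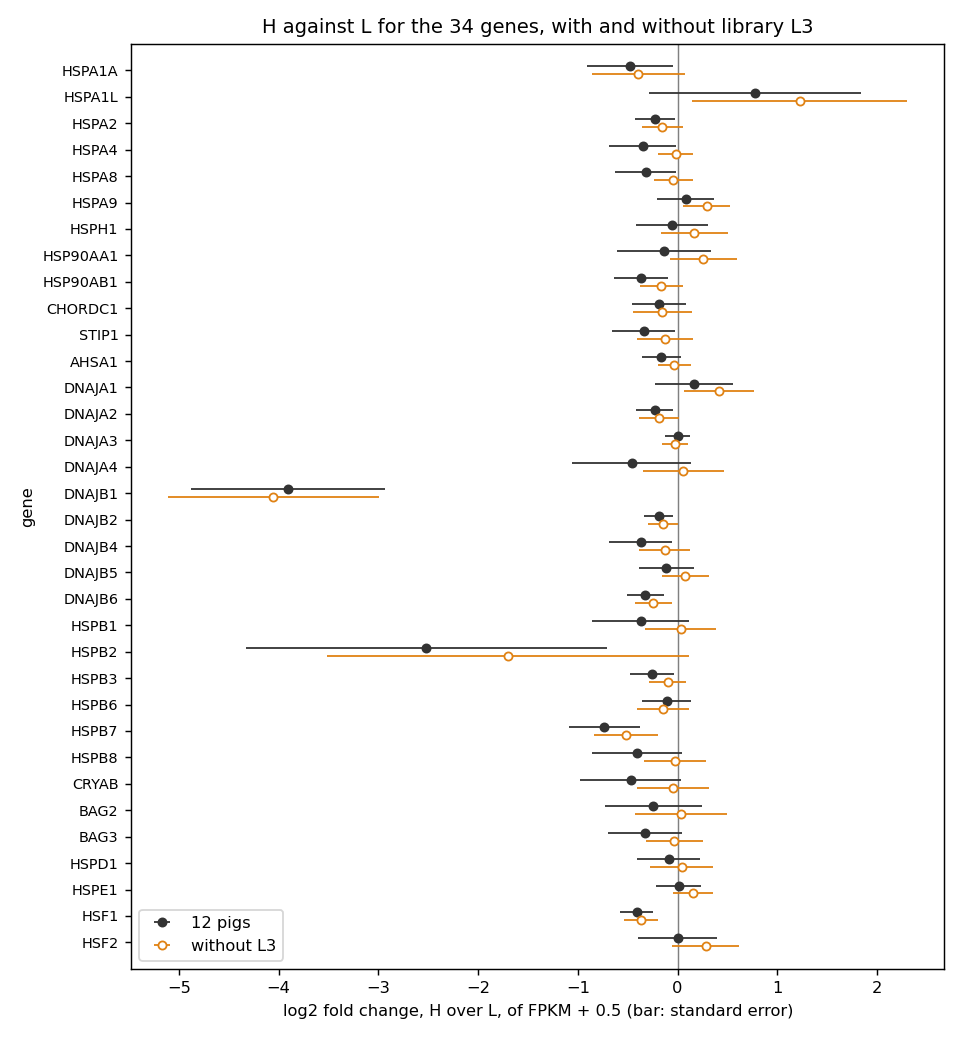
Log2 fold change, H over L, of FPKM + 0.5 for each of the 34 genes (rows), with its standard error, from all 12 pigs (filled) and without L3 (open). Most filled points lie left of 0, the open point lies closer to 0 in 24 genes and farther in 10, and DNAJB1 and HSF1 stay to the left in both.

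L3 held the highest level of the 12 libraries in 24 of the 34 genes (70.6%), against 14.8% of all genes tested. In 20 genes (58.8%) L3 lay at least 2 times above the median of the other 11 libraries on the log2(FPKM + 0.5) scale, which 7.42% of all genes did. Of the 5 genes with a heat shock element before the start, L3 was highest in 3, HSPA8, HSP90AB1 and HSPD1. The excess was largest among the small heat shock proteins, where the median log2 distance of L3 from the other libraries was 2.36, followed by the BAG proteins (1.62), the HSP90 class (1.19), the HSP70 class (1.12), the heat shock factors (0.96), the chaperonin (0.69) and the J-proteins (0.63). By exon depth L3 was highest in 25 of the 34. Exon depth sums the mean read depth of whole transcripts, each weighted by the share of the gene's exonic bases that it covers. It is rescaled to the level of FPKM and is not a count of reads per base. The low end was shared by L2, lowest in 12 genes (35.3%, against 10.1% of all genes), and H4, lowest in 10 (29.4%, against 7.67%). The spread among pigs of 1 group therefore exceeded the distance between groups for most of these genes. The residual SD within groups had a median of 0.60 (log2) over the 34 genes and 0.39 over all genes tested, and 20 of the 34 lay above the 75th percentile of all genes. Without L3 those numbers were 0.50, 0.37 and 15.

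**Figure D2:**
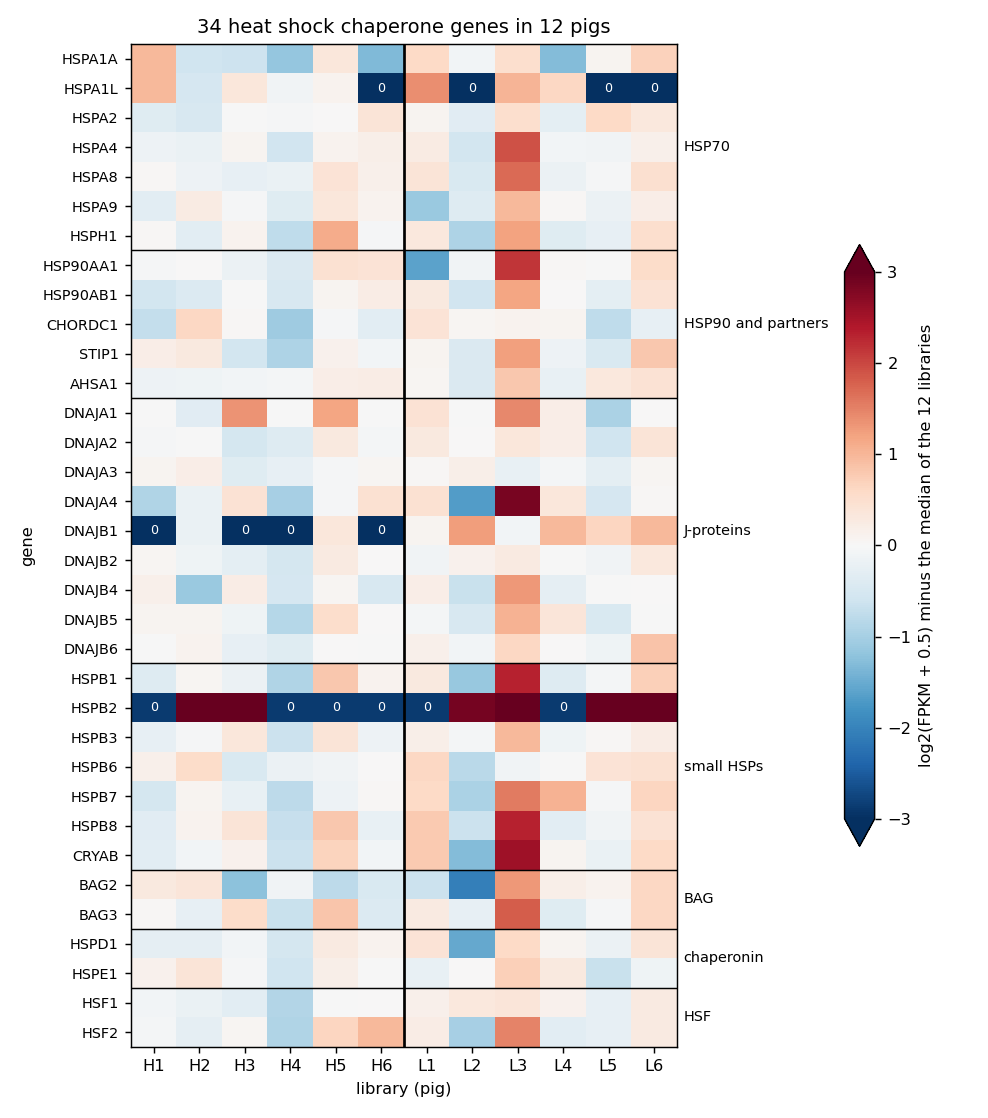
Log2(FPKM + 0.5) of the 34 genes (rows, by role) in each of the 12 libraries (columns, H left and L right of the line) minus the gene's median, with red above it and blue below, and 0 marking values listed at 0. The L3 column is red in nearly all rows, and the H4 and L2 columns are blue in most rows.

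The excess in L3 was uneven among other chaperones. L3 was highest in 9 of 14 genes of the cytosolic chaperonin CCT and prefoldin (64.3%). Of these, PFDN2 was listed above 0 in L3 alone and passed the filter only through it. The rest were the CCT genes CCT2, CCT3, CCT4, CCT5, CCT6A, CCT7, CCT8 and TCP1. In PFDN1, PFDN4, PFDN5, PFDN6 and VBP1, of prefoldin, another library was highest. L3 was highest in 5 of 14 chaperones of the endoplasmic reticulum (35.7%), in 5 of 23 other chaperone partners (21.7%) and in 0 of 13 mitochondrial import and protease genes. It was also highest in 10 of 14 immediate early genes (71.4%), which respond to stimulation within minutes, in 1 of 12 muscle markers (8.33%), and in 0 of 9 slow fibre, 0 of 9 adipocyte, 0 of 7 endothelial, 0 of 7 macrophage and 0 of 3 erythroid markers. The summed adipocyte markers were at 198 FPKM in L3, at the low end of the 197 to 383 FPKM of the L group and below the 224 to 460 FPKM of H. GPD1, the largest part of that sum, was at 88.9 FPKM in L3, next to a mean of 126.3 in L. PLIN4, LIPE and LEP were also below their L means in L3, whereas ADIPOQ, PLIN1, CIDEC, FABP4 and LPL were above theirs. The summed endothelial and erythroid markers were lowest in L3, at 42.3 and 73.1 FPKM. The summed slow fibre markers were lowest in L3 as well, at 5388 FPKM against 7577 to 11578 in H and up to 12288 in L, with a median log2 distance from the other libraries of -0.62. That sum is lowered by TNNI1, which was listed at 0 in L3 and averaged 717.5 FPKM in H and 812.4 in L. A listed 0 is not absence of the RNA. The part that the fewer transcripts, the slow fibre markers or the immediate early genes of L3 have in the chaperone levels was not tested.

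Small heat shock proteins were the most abundant of the 34. CRYAB, alpha B-crystallin, which holds desmin and titin under stress, was first by mean level: it ranged in H from 1552 to 3868.5 FPKM with a median of 2293 and in L from 986 to 14201 FPKM with a median of 3092. The top value was L3, at 5.58 times the median of the other L pigs, and the bottom one was L2, so that L held both extremes. On the log2 scale it changed by -0.47 ± 0.51 (SE), with an exact permutation p of 0.46, and by -0.04 without L3.

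HSPB1, also called HSP27, which binds actin and the Z-disc, came next, at 942 to 3079 FPKM in H (median 1687) and 801 to 8598 FPKM in L (median 1911.5). L3 was again highest and L2 lowest. The mean was 1766 ± 729 FPKM in H and 1764.5 FPKM in the 5 L pigs other than L3, and the log2 fold change changed from -0.37 to 0.03 when L3 was left out. HSPB8, which pairs with BAG3, ranged from 278 to 784 FPKM in H (median 435) and from 287 to 2247 FPKM in L (median 515), with L3 at 5.39 times the median of the other L pigs. Its fold change was -0.41 ± 0.45 on the log2 scale, and -0.02 without L3. All 3 genes thus had the same shape, with overlapping groups and 1 pig far above.

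HSPB7, the cardiovascular small heat shock protein, which keeps filamin from clumping, had the widest gap between groups in this class apart from HSPB2. It lay at 209 to 382 FPKM in H (median 315) and at 185 to 1061 FPKM in L (median 556). Of the L pigs, 4 were above every H pig, 1 was inside the H range and L2 was below it. The log2 fold change was -0.73 ± 0.36, with an adjusted p of 0.69 and an exact permutation p of 0.093, and -0.52 without L3. By exon depth it was -0.85 ± 0.35, with an adjusted p of 0.47 and an exact permutation p of 0.043, which was 0.089 without L3. HSPB7 did not pass the threshold by either measure.

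HSPB6, or HSP20, a phosphoprotein of relaxing smooth and striated muscle, did not share the L3 peak. It ranged from 338 to 677 FPKM in H (median 449) and from 268 to 716 FPKM in L (median 543.5), with L3 at 432 FPKM, below the median of the other L pigs. The log2 fold change was -0.11 ± 0.25. HSPB3, a muscle form that pairs with HSPB2, was low, at 2.85 to 6.30 FPKM in H (median 4.39) and 4.24 to 9.75 FPKM in L (median 5.08), and the highest value was L3. Its log2 fold change was -0.26 ± 0.22.

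HSPB2, which stabilises the kinase DMPK, was listed at 0 in 6 libraries, H1, H4, H5, H6, L1 and L4. The other values were 37.2 FPKM in H2, 41.8 in H3, 26.03 in L2, 210.9 in L3, 42.4 in L5 and 57.7 in L6. Its gene lies across that of CRYAB on the opposite strand of chromosome 9. Even where it was assembled, transcripts covered only 30.6 to 43.1% of its exonic bases, and in the 6 others they covered none on its strand. Its log2 fold change of -2.52 ± 1.81 rests on which libraries are at 0.

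**Figure D3:**
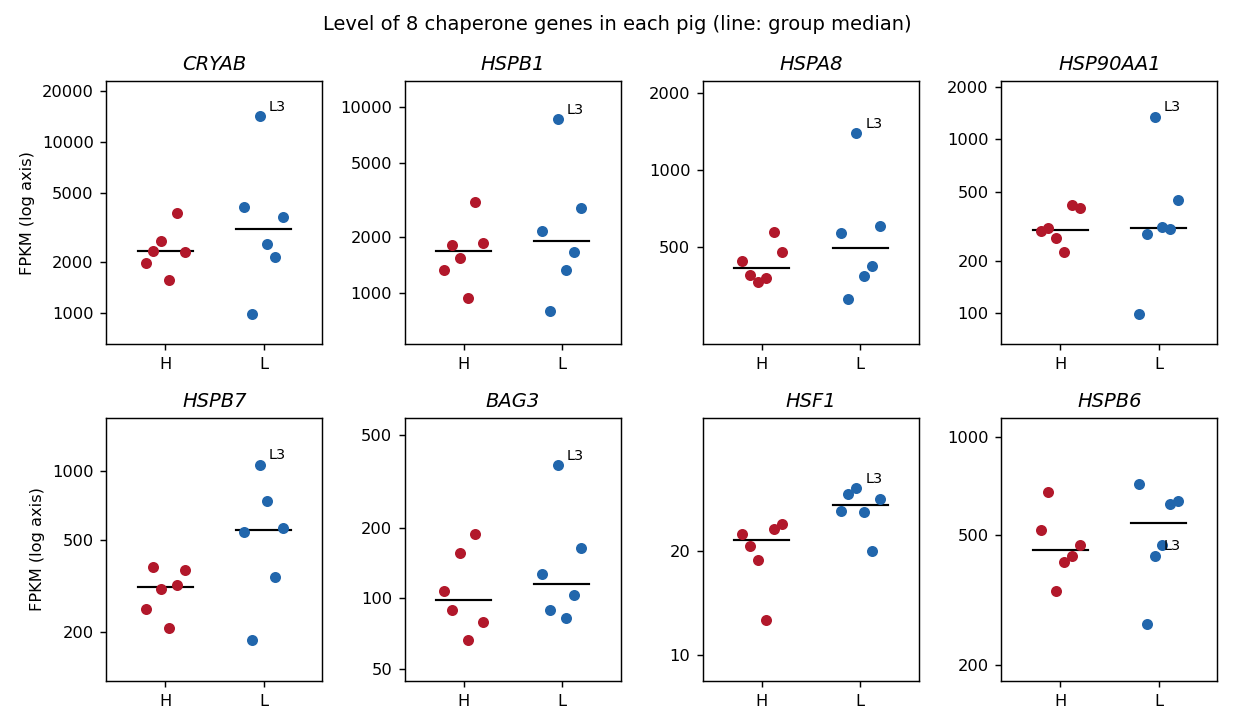
FPKM on a log axis for 8 genes in each H and L pig (points), with the median of each group as a line and L3 named. L3 lies above every other pig in CRYAB, HSPB1, HSPA8, HSP90AA1, HSPB7, BAG3 and HSF1, by 3.4 times in CRYAB and by 1.04 times in HSF1 over the next pig, and lies inside the L group in HSPB6.

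In the HSP70 class, HSPA8, the constitutive cytosolic HSC70, whose promoter carries 2 of the elements, was the most abundant of its class and the fourth of the 34 by mean level. It ranged from 367 to 573 FPKM in H (median 414) and from 313 to 1398 FPKM in L (median 495), with L3 at 3.3 times the median of the other L pigs. Apart from L3 the groups covered almost the same range. The log2 fold change was -0.32 ± 0.31, and -0.04 without L3. HSPA4, an HSP110-type exchange factor, had the sharpest L3 peak of the class by FPKM, 106 against at most 33.1 in the other 11 pigs. By exon depth the peak of HSPA8 was the larger, 2106.7 against at most 846.5, next to 88.0 against at most 47.7 for HSPA4.

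HSPH1, the stress-inducible HSP110, lay at 15.4 to 57.9 FPKM in H (median 26.4) and 13.7 to 61.2 FPKM in L (median 27.7). By FPKM H5 nearly reached L3, whereas by exon depth L3 stood alone at 89.0, with H5 next at 52.96. The log2 fold change was -0.05 ± 0.36. HSPA9, the mitochondrial mortalin, averaged 90.5 ± 18.1 FPKM in H and 92.3 ± 45.2 FPKM in L (SD). HSPA2, a form best known from the testis, was the lowest of the 34 by mean level, at 2.00 to 4.03 FPKM in H (median 2.92) and 2.24 to 4.76 FPKM in L (median 3.52). The highest L value was L5, and the log2 fold change was -0.23 ± 0.20.

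HSPA1L, the testis form of HSP70, was listed at 0 in H6, L2, L5 and L6. In the other libraries it lay between 3.34 and 13.7 FPKM, with the highest value in L1 and the next in L3 and H1. Its gene spans both HSP70 frames described next, on the opposite strand. With 4 values at 0, no mean and no direction is given.

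HSPA1A, the main inducible HSP70, needs a closer look, since the annotation names a single gene, HSP70.2 (chr7:23925929-23927854, plus strand), that starts and ends with its coding frame of 642 codons. A second frame of the same length, which this annotation does not name, lies at chr7:23915072-23916997 on the same strand. It differs in 3 bases (99.8% identity), and 91.6% of the windows of 76 bases, the length of the reads, are the same in both. Reads can therefore be split between the copies in a way that the files do not show. HSPA1A was the only 1 of the 34 genes with another genomic copy of at least 95% identity over at least 30% of its exons.

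In every library the second frame was assembled over 82.2 to 100% of its length, whereas transcripts covered only 13.7 to 21.9% of the annotated copy, at its ends. The annotated copy summed to 169 to 829.4 FPKM in H (median 277) and 172 to 686 FPKM in L (median 525), with a log2 fold change of -0.48 ± 0.43. By this sum H1 was the highest pig and H6 the lowest, and L3 was within the other L pigs. In H1 it joined 486 FPKM of a piece at the 3′ end and 343.4 of one at the 5′ end. In H5 these were 325.3 and 213.8 FPKM. In H4, L1, L2, L5 and L6 the piece at the 5′ end had no strand and was not counted. By the piece at the 3′ end alone L6 was highest, at 686.1 FPKM, and L4 lowest, at 156.1. The second copy was chosen for a look after its values were seen. It lay at 566.5 FPKM in H1, 109.9 in H2, 122.5 in H3, 247.7 in H4, 256.4 in H5 and 228.7 in H6. In L it lay at 569.5 FPKM in L1, 698.1 in L2, 584.0 in L3, 377.9 in L4, 540.9 in L5 and 633.3 in L6.

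Of the H pigs, 5 were thus below every L pig and H1 was within the L range. The mean was 255 ± 165 FPKM in H and 567 ± 108 FPKM in L (SD, 6 pigs each). The log2 difference was -1.35, with p = 0.0065 by an exact permutation test of 1 feature (two-sided, 924 arrangements), and -1.33 without L3. FPKM divides by transcript length, and the transcripts over the second frame in H2 and H3, the lowest pigs, ran on to 3729 and 6078 bases past the start of the frame, farther than in any other library. The part of this in the difference was not tested. The piece at the 3′ end of the annotated copy, of like length in 11 of the 12 libraries, had a log2 difference of -0.83 with an exact permutation p of 0.067, and -0.74 without L3.

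**Figure D4:**
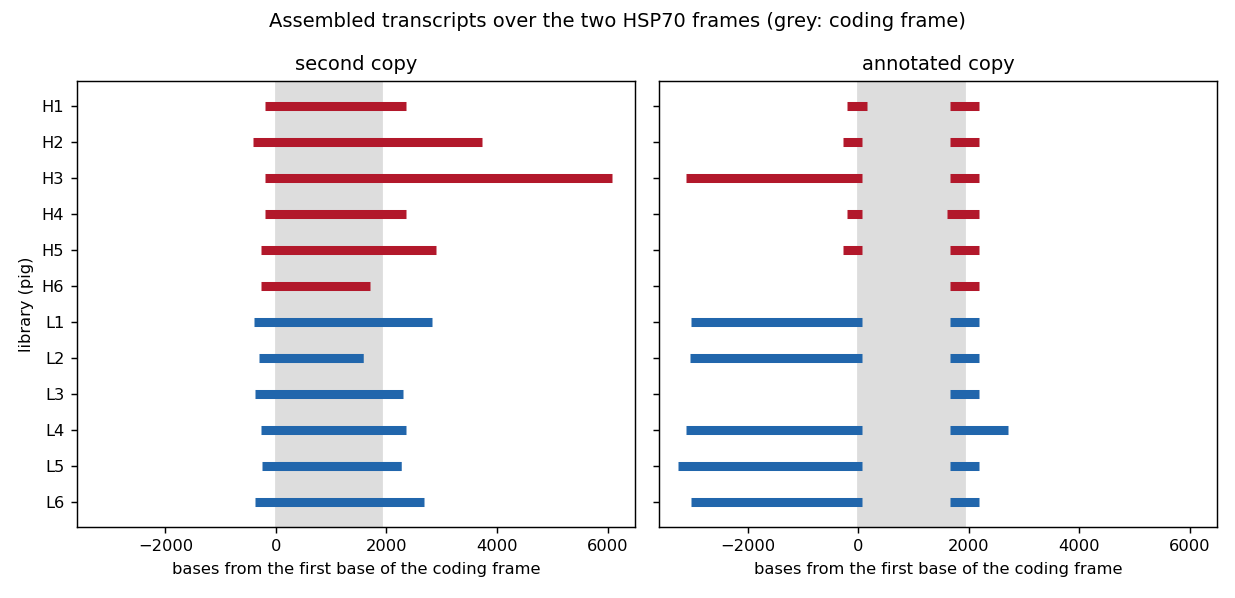
Transcripts (bars) assembled in each library over the second HSP70 frame (left) and the annotated one (right), by distance in bases from the first base of the coding frame, which is shaded. The second frame is covered throughout or nearly so in every library, and the annotated one is covered only at its ends.

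HSP90AA1, the inducible cytosolic HSP90, lies on an unplaced scaffold of the assembly. It ranged from 226 to 419 FPKM in H (median 302) and from 99.97 to 1346 FPKM in L (median 310). L held both extremes, with L1 lowest and L3 highest, and the log2 fold change turned from -0.14 ± 0.47 to 0.26 without L3. HSP90AB1, the constitutive form, ranged from 133 to 227 FPKM in H (median 171) and from 131 to 443 FPKM in L (median 219). Its log2 fold change was -0.37 ± 0.27, and -0.16 without L3.

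Of the partners of HSP90, STIP1, or HOP, which links HSP70 to HSP90, averaged 46.2 ± 13.8 FPKM in H and 62.2 ± 32.7 in L. AHSA1, the activator of its ATPase, averaged 64.2 ± 7.79 FPKM in H and 74.6 ± 23.7 in L. CHORDC1, a co-chaperone whose promoter held 3 overlapping elements, averaged 10.9 ± 4.70 FPKM in H and 11.9 ± 3.10 in L. L3 was highest for STIP1 and AHSA1 but not for CHORDC1, where H2 was, and no log2 fold change of the 3 was farther from 0 than -0.34 ± 0.32.

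Among the J-proteins, DNAJB1, or HSP40, the inducible partner of HSP70, had the smallest p of the 34 and was the gene whose value depended most on how it was counted. It was listed at 0 in H1, H3, H4 and H6, at 12.8 FPKM in H2 and at 19.0 FPKM in H5. In L it lay at 15.6 FPKM in L1, 36.2 in L2, 14.1 in L3, 29.5 in L4, 23.5 in L5 and 29.4 in L6. All 6 L pigs were above H2, and 4 of them were above H5, the highest H pig. Its log2 fold change was -3.91 ± 0.97, with an unadjusted p of 0.0016 and an adjusted p of 0.54 by limma and an exact permutation p of 0.0087.

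In every library DNAJB1 exons (chr2:64761672-64764482, plus strand) lay in a transcript that began 32655 to 33338 bases upstream. In the 4 libraries at 0, such a transcript shared more exonic bases with LOC110259333, an upstream long non-coding RNA gene, and was counted there. In L2, L5 and L6 part of the signal went the same way, 11.8, 7.04 and 14.8 FPKM, beside what was assigned to DNAJB1. Exon depth, which takes no account of the assignment, was above 0 for DNAJB1 in all 12 libraries. It rests on the mean depth of whole transcripts, those that began upstream included. Reads outside the DNAJB1 exons therefore enter it, and the depth of these exons alone is not known. The exon depth of DNAJB1 was 20.8 in H1, 16.6 in H2, 31.3 in H3, 8.78 in H4, 21.6 in H5 and 11.9 in H6, against 22.6 in L1, 40.9 in L2, 21.0 in L3, 36.0 in L4, 34.9 in L5 and 32.6 in L6.

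By this measure the H values were also lower on the whole, with H3 among the L pigs and L1 and L3 at the upper end of H. The log2 difference was -0.82 ± 0.28, with an unadjusted p of 0.013, an adjusted p of 0.44 and an exact permutation p of 0.015, and -0.92 without L3. By exon depth 3 of the 34 genes, DNAJB1, HSF1 and HSPB7, were lower at an unadjusted p under 0.05, where 4.6% of all genes were, and 0 higher, where 5.1% were. No gene of the 34 passed the adjusted threshold by exon depth, which 0.00882% of all genes did. DNAJB1 did not share the L3 peak by either measure. When only transcripts with at least 50% of their bases in exons of a gene were counted, DNAJB1 was listed at 0 in 5 H and 5 L pigs, and the log2 fold change was -0.19, with an adjusted p of 0.99. No library held the annotated exon chain of DNAJB1, and 6 other chains were assembled.

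**Figure D5:**
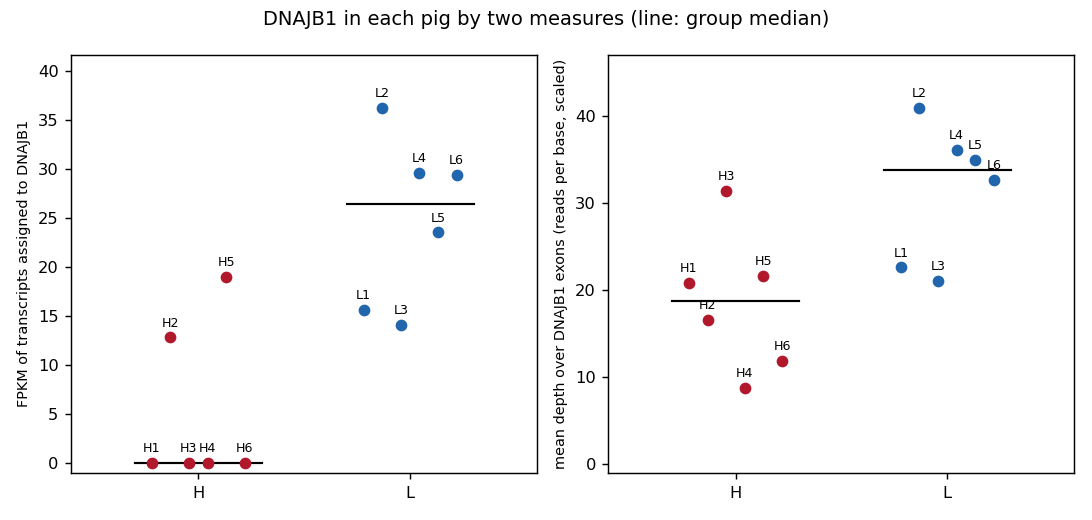
DNAJB1 in each pig as the FPKM of the transcripts assigned to it (left) and as exon depth (right), with group medians as lines. Exon depth is on the level of FPKM, although the axis names reads per base. At the left 4 H pigs lie at 0, and at the right they lie between 8.78 and 31.3.

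DNAJA1, the main partner of HSC70, is among the genes that were also measured by q-PCR in these pigs. The paper gives it as lower in H by q-PCR and by its own RNA-seq, without calling it differentially expressed. There it had the opposite sign to the fold changes given next. Its primers are shown to place that amplicon, in lower case and 5′ to 3′.
DNAJA1 forward (chr10:33444275-33444298): attgaaaaaggcttacaggaaact
DNAJA1 reverse (chr10:33443952-33443971): gggggagccaaaaccaccac
The forward primer lies in exon 2 and the reverse primer in exon 3 of 9, and the spliced product is 190 bases long. In the files DNAJA1 ranged from 16.1 to 52.9 FPKM in H (median 20.4) and from 10.5 to 56.7 FPKM in L (median 22.2). By FPKM H3, H5 and L3 formed a high set well above the other 9 pigs. By exon depth L3 stood alone at 79.5, with H3 next at 34.1. On the log2 scale the fold change was 0.17 ± 0.39, and 0.42 ± 0.35 without L3, with an exact permutation p of 0.69 and 0.30. By exon depth it was 0.01. When only transcripts with at least 50% of their bases in exons were counted it was 3.78, with an unadjusted p of 0.0053 and an adjusted p of 0.64, and in that setting DNAJA1 was listed at 0 in 4 L pigs and 0 H pigs.

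DNAJB6, which keeps muscle proteins from aggregating and is mutated in a limb-girdle muscular dystrophy, ranged from 72.6 to 101.2 FPKM in H (median 93.0) and from 84.8 to 170 FPKM in L (median 98.7). The top pig here was L6 and not L3, and the log2 fold change was -0.32 ± 0.18, with an exact permutation p of 0.12. DNAJB4, a close relative of DNAJB1, ranged from 26.5 to 67.8 FPKM in H (median 50.5) and from 36.3 to 142 FPKM in L (median 57.6), with L3 highest. Its log2 fold change was -0.37 ± 0.32, and -0.13 without L3.

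DNAJA2, which works with HSC70, ranged from 18.8 to 33.8 FPKM in H (median 26.4) and from 17.99 to 35.8 FPKM in L (median 32.6), and its log2 fold change was -0.23 ± 0.19. DNAJB2, which takes clients to the proteasome, ranged from 13.9 to 24.5 FPKM in H (median 19.5) and from 18.7 to 25.5 FPKM in L (median 21.3), with a log2 fold change of -0.19 ± 0.15. By FPKM L3 was not the highest pig in either, while by exon depth it was, at 9.53 next to 9.21 for DNAJA2 and 22.6 next to 19.6 for DNAJB2. Neither gene passed the test.

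DNAJA4 had the largest L3 value relative to the rest of all J-proteins, 146.5 FPKM against at most 27.7 in the other 11 pigs. Its log2 fold change was -0.46 ± 0.60, and 0.06 without L3. DNAJB5 averaged 33.9 ± 9.73 FPKM in H and 38.0 ± 17.1 in L. DNAJA3, the mitochondrial J-protein, averaged 21.6 ± 3.14 FPKM in H and 21.5 ± 2.60 in L, and its residual SD lay at the 10.9th percentile of all genes. It was thus among the steadier genes, next to relatives that varied widely.

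BAG3, which with HSPB8 and HSC70 delivers damaged filamin to autophagy, ranged from 66.5 to 189 FPKM in H (median 98.3) and from 82.3 to 371 FPKM in L (median 115.5). L3 was highest and H4 lowest, and without L3 the mean of L was 113 FPKM, next to 115 FPKM in H. The log2 fold change was -0.33 ± 0.37, and -0.04 without L3. BAG2, an inhibitor of the ubiquitin ligase CHIP, was low, with a mean of 4.57 ± 2.05 FPKM in H and 6.45 ± 4.49 in L.

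HSPE1, the mitochondrial HSP10, ranged from 66.6 to 130 FPKM in H (median 104) and from 62.5 to 164 FPKM in L (median 96.5). The log2 fold change was 0.01 ± 0.23, among the closest to 0. HSPD1, or HSP60, averaged 53.6 ± 10.96 FPKM in H and 61.8 ± 24.3 in L, with a log2 fold change of -0.09 ± 0.31. L3 was highest for both, by 1.26 times for HSPE1 and 1.13 times for HSPD1 over the next pig.

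HSF1, the factor that switches the stress-inducible genes on, had a lower median in H and little spread. It ranged from 12.6 to 24.0 FPKM in H (median 21.5) and from 19.98 to 30.6 FPKM in L (median 27.3). Of the L pigs, 5 were above every H pig, and L5 was inside the H range. Between groups the log2 fold change was -0.41 ± 0.17, with an unadjusted p of 0.029, an adjusted p of 0.65 and an exact permutation p of 0.022. By exon depth it was -0.39 ± 0.13, with an unadjusted p of 0.0096, an adjusted p of 0.43 and an exact permutation p of 0.0022, the smallest that 6 against 6 can give. By that measure every H pig was below every L pig, but barely, with H5 at 24.27 and L5 at 24.3. The share of all genes that separate so by exon depth was not counted. Without L3 the log2 fold change was -0.37 by FPKM, with an exact permutation p of 0.048, and -0.33 by exon depth, with an exact permutation p of 0.0087. HSF1 did not pass the threshold over all genes by either measure. HSF2, the developmental heat shock factor, averaged 10.3 ± 4.91 FPKM in H and 11 ± 7.67 in L, with a log2 fold change of 0.00 ± 0.40, and its top pig was L3.

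For 8 of the 34 genes at least 2 annotated splice forms were each present at a mean of 0.5 FPKM in a group, and the share of the main form was compared. None of the 8 differed by an exact permutation test, with adjusted p of 0.65 to 1. HSPH1 came closest, with a mean of 67.8% of its FPKM in the main form in H and 54.0% in L, and single pigs between 40.5 and 100% (exact permutation p = 0.29). The shares swung between 0 and 100% for DNAJA3, DNAJB2, DNAJB6 and HSF1, so that these pigs cannot show a small difference.

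The levels of most chaperones moved together across pigs with HSPB1, and none passed the test with DNAJB1. Over 12 libraries, DNAJB1 had a median Pearson's r of 0.23 with the other 33 genes, and 0 of 33 passed an adjusted p under 0.1 by r or by Spearman's rho (permutation tests). The largest was HSF1, with r = 0.61 (permutation p = 0.029) and rho = 0.57 (permutation p = 0.055), adjusted p = 0.76 for r. Without H3 and H4, the 2 pigs farthest from the median of DNAJB1, the median r was 0.03, and r with HSF1 was 0.30. Both DNAJB1 and HSF1 were lower in H, and a difference between groups enters r over all 12 pigs. With deviations from the group means in place of the levels, the median r was 0.12 and the largest 0.52. The values at 0 described above enter these correlations.

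HSPB1, taken as the partner after the values were seen, had a median r of 0.72 with the other 33 genes and of -0.02 with all genes tested. An r above 0.5 was found for 25 of 33 (75.8%), against 12.5% of all genes, and 23 passed an adjusted p under 0.1 by r and 20 by rho. The largest was CRYAB, with r = 0.96 and rho = 0.87 (permutation p = 2e-05 and 0.00038, adjusted p = 0.00033 and 0.0023). Without L3 the median r was 0.58, and 18 of 33 (54.5%) were above 0.5, against 10.1% of all genes. Without L2 and L3, the 2 pigs farthest from the median of HSPB1, 15 passed by r and 10 by rho, and r with CRYAB was 0.86. HSPB6, HSPE1, CHORDC1, HSPA1A and DNAJA3 were among those that did not pass with 12 pigs. The libraries share the scaling and the depth behind all values.

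Other chaperone genes were described from lists in the same way, and 0 genes of these lists passed limma at an adjusted p under 0.1. At an unadjusted p under 0.05 the shares among all genes, given above, were 3.37% lower and 3.98% higher in H, and 49.5% of all genes lay below 0. Of 23 chaperone partners tested, 15 (65.2%) had a log2 fold change below 0, and the median was -0.08. At an unadjusted p under 0.05, 2 were lower in H and 0 higher. The first was UNC45B, which folds myosin with HSP90: it averaged 40.2 ± 13.7 FPKM in H and 64.2 ± 15.5 in L, with a log2 fold change of -0.68 ± 0.24 and an adjusted p of 0.61. Without L3, which was the lowest L pig at 33.4 FPKM, it was -0.86, with an adjusted p of 0.64. TTC4, a partner of HSP90 and HSP70, averaged 9.54 ± 1.37 FPKM in H and 11.3 ± 0.436 in L, with an adjusted p of 0.67. CDC37, which brings kinases to HSP90, had a log2 fold change of -0.18 ± 0.10.

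Of 14 genes of the CCT ring and prefoldin, which fold actin and tubulin, 0 were at an unadjusted p under 0.05. A log2 fold change below 0 was found for 12 of them (85.7%), and the median was -0.17, and -0.01 without L3. CCT7 and CCT5 had log2 fold changes of -0.26 ± 0.16 and -0.38 ± 0.27, which were -0.13 and -0.14 without L3, and PFDN2 was listed above 0 in L3 alone. Of 13 mitochondrial import and protease genes, 1 was lower, CLPP, a subunit of the matrix protease, at 7.82 ± 1.63 FPKM in H and 9.98 ± 1.53 in L (adjusted p = 0.67). In this list 6 genes (46.2%) had a log2 fold change below 0, and the median was 0.01. GRPEL1, the exchange factor of mortalin, had a log2 fold change of -0.39 ± 0.28, and CLPX one of -0.18 ± 0.12.

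Of 14 chaperones of the endoplasmic reticulum tested, 0 were at an unadjusted p under 0.05, 13 had a log2 fold change below 0, and the median was -0.16, and -0.07 without L3. HSPA5, or BiP, had a log2 fold change of -0.57 ± 0.32, with L3 at 143 FPKM and at most 62.1 in the other pigs, and P4HB and CANX had -0.41 ± 0.22 and -0.29 ± 0.15. Without L3 the values of these 3 were -0.29, -0.33 and -0.22. Of 11 genes of chaperone-assisted autophagy and other heat shock targets, 9 (81.8%) had a log2 fold change below 0. At an unadjusted p under 0.05, 1 was lower, HMOX1, the stress-induced haem oxygenase, at 3.51 ± 0.504 FPKM in H and 5.40 ± 2.01 in L (adjusted p = 0.65). SQSTM1, the autophagy receptor p62, had a log2 fold change of -0.38 ± 0.19. VCP, the segregase p97, was listed at 0 in at least 1 H pig, and no fold change is given.

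The marker lists of other cell types had medians above 0, in lists of few genes each. The same shares of all genes, 3.98% higher and 3.37% lower, apply here. Of 9 adipocyte markers tested, 2 were higher in H and 0 lower at an unadjusted p under 0.05, with a median of 0.71 on the log2 scale, and of 7 endothelial markers 2 were higher, with a median of 0.30. Of 3 erythroid markers 2 were higher, with a median of 0.96, and of 7 macrophage markers 0, with a median of 0.23. Of 12 muscle markers 1 was lower, with a median of 0.04, and -0.12 without L3, the library in which TNNI1 was listed at 0. Without L3 the adipocyte, endothelial, erythroid and macrophage medians were 0.75, 0.23, 0.86 and 0.33. MRC1 and CD163 of the macrophage list were then higher in H at an unadjusted p under 0.05, where 3.53% of all genes were. Of 9 slow fibre markers 0 were higher and 0 lower, with a median of -0.13, and -0.23 without L3. Of the 14 immediate early genes all 14 had a log2 fold change below 0 and 5 were lower in H at an unadjusted p under 0.05, with a median of -0.81, and -0.70 without L3. The part of these in the chaperone levels was not tested.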

How the data were processed

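RNA-seq of longissimus dorsi from 6 H and 6 L pigs, grouped by sample title, was used. The authors trimmed paired reads of 76 bases with Trim Galore after FastQC, mapped them to Sscrofa11.1 with TopHat2 2.1.0, assembled each library alone with Cufflinks 2.2.1 and deposited a list of transcripts with FPKM and read coverage. The lists hold no counts, so that no counting interval is given.

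Each transcript was assigned to the RefSeq gene sharing most exonic bases on its strand, or, without a strand, to one that held at least 50% of it. Scaffolds named otherwise were matched by at least 5 shared introns. FPKM were summed per gene, scaled by median ratios and tested as log2(FPKM + 0.5), which understates changes of low genes. The 12570 genes whose mean reached 0.5 FPKM in H or L entered a two-sided limma fit (version 3.58.1 in R 4.3.3) that let the variance follow the level, adjusted over all of them by Benjamini and Hochberg, with a threshold of 0.1. It was tested on simulated data first. The study had used Cuffdiff on alignments, which need files not used here. Single values were compared by exact permutation over 924 arrangements (smallest p 0.0022) and correlations with 100000 resamples. Copies were searched with minimap2 2.31. P-values measure the spread between pigs, 1 library each.

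The 34 genes and other lists were chosen with earlier results of these data known. Values by library are described for the 12 genes with the smallest p, the 12 with the highest mean, and HSPA1A, DNAJB1, HSPH1, HSP90AA1, HSPB1, BAG3, HSF1 and DNAJA1 (22 in all), with up to 3 genes of each other chaperone list by smallest p. Alternatives were other pseudocounts, filters, scalings and assignments, exon coverage, no trend, array weights, a replicate block and pigs left out. Added after the data were seen were chromosomes alone, exon coverage without L3, HSPB1 as partner in correlations, the second HSP70 copy and the end piece of the annotated one.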

Additional observations from a re-analysis of the deposited data

Results flagged for a closer look

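Each of the 34 genes was checked in each group, 68 groups of 6 pigs in all, for 1 pig whose gap to the next, on the log2 scale, was above 0.625 of the whole range of the group. Chance flags about 1 in 20 groups, and 5 were flagged. The pig L3 was flagged for HSPA4, at 106 FPKM, and for HSPB3, at 9.75 FPKM. In the other genes in which L3 was highest, its gap was a smaller part of the range of the group. L2 itself was flagged for HSPD1, at 19.6 FPKM, where the other 5 L pigs lay between 50.7 and 87.2 FPKM. L5 was flagged for DNAJA2, at 17.99 FPKM, next to 27.8 to 35.8 FPKM in the other L pigs. H6 was flagged for HSPA1L, which was listed at 0 there and lay between 3.34 and 10.2 FPKM in the other H pigs.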

How the results depend on the processing

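In every setting 0 of the 34 genes passed the adjusted threshold, and 0 splice shares did. The number at an unadjusted p under 0.05, 2 with all 12 pigs, was 1 after quantile normalization, 0 of 28 tested with annotated intron chains alone, 1 (DNAJA1, higher in H at 3.78) with transcripts at least 50% in exons, and 1 without H4 and L3. It ran from 1 to 4 as each pig was left out, with 1 without H3, H4, L3 or L6 and 4 without L5. The median log2 fold change of the genes ran from -0.382 to -0.039 as each pig was left out, with L3 giving -0.04. With HSPB1 in place of DNAJB1, 23 genes passed in the correlations, where 0 had.

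The replicate numbers of H and L do not pair pigs: the correlations of same-numbered deviations ran from -0.08 to 0.06, and 1 of 6 pigs matched best with its own number. With the replicate block the count below 0.05 was 1.

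Of the genes described by library, these turned sign, none of them past the adjusted threshold in any setting. With unscaled FPKM HSPE1 was at -0.002. After quantile normalization HSPH1 was at 0.023 and HSPB6 at 0.009. With annotated chains alone DNAJA2 was at 0.30, HSPB6 at 1.49 and HSPB7 at 1.10. With transcripts at least 50% in exons HSPA1A was at 2.26, HSPH1 at 0.016, HSP90AA1 at 1.14 and HSPB6 at 1.54. With array weights HSP90AA1 was at 0.074. Without H4 and L3 HSPH1 was at 0.325, HSP90AA1 at 0.35, HSPB1 at 0.195, HSPB3 at 0.016, HSPB8 at 0.12, CRYAB at 0.074 and BAG3 at 0.10. By exon coverage without L3 HSPH1 was at 0.063, HSP90AA1 at 0.30, HSPB1 at 0.038 and BAG3 at 0.007. As each pig was left out HSPE1 ran from -0.125 to 0.152, HSPH1 from -0.273 to 0.169, DNAJA1 from -0.06 to 0.416, HSP90AA1 from -0.492 to 0.257 and HSPB1 from -0.652 to 0.033. The cause was not tested. DNAJB1 and HSF1 were below 0 in all settings in which they were tested, but with transcripts at least 50% in exons DNAJB1 was at -0.19 (adjusted p = 0.99) and HSF1 at -1.19 (adjusted p = 0.79). The files hold no counts, so that counting error is unknown.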
